A study of Homo sapiens with 54 samples.

Results

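HepG2 cells, a human liver cancer line, were compared after 3 h with interleukin-6 (IL-6) and after 3 h with interleukin-10 (IL-10), both at 50 ng/mL. The comparison takes every HepG2 library labelled with either cytokine at 3 h, which is 3 IL-6 and 3 IL-10 libraries, 6 of the 54 in the series. The IL-10 cells are the time-matched group that IL-6 is set against. HepG2 cells given an equal volume of medium (NC, 3 libraries), whose labels name no time, were set beside them. IL-6 and IL-10 HepG2 libraries at 6 h and the same 2 cytokines at 3 h in HCT116, a colon cancer line, had 3 libraries a group. IL-10 and its dose are named in the series text, while the treatment protocol of the labels lists IL-6, TNF-α and Torin1. Each line is a single cell line, so nothing here speaks for other liver or colon cells.

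IL-6 binds the receptor chain IL6R and then the shared signalling chain gp130, made from IL6ST. The receptor's kinases (JAK1, JAK2 and TYK2) phosphorylate STAT3, which enters the nucleus and switches on target genes, among them SOCS3, an inhibitor that shuts the receptor off again. In hepatocytes this pathway drives the acute phase response, in which the liver secretes proteins such as haptoglobin and fibrinogen into the blood. IL-10 also signals to STAT3, but through a receptor of IL10RA and IL10RB that is best known from immune cells.

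Poly(A) RNA was sequenced, and levels are the deposited FPKM values (fragments counted per kilobase of transcript and scaled to library depth). The 6 libraries held 52.9 to 70.4 M recovered gene reads each, and between 10483 and 10540 genes reached 1 FPKM in each. The labels call HepG2 a liver cancer stem cell, while the series text calls it hepatocellular carcinoma. Of 15 hepatocyte markers 14 were expressed, and together they summed to 16800 to 19600 FPKM in IL-6 libraries and 18700 to 19300 FPKM in IL-10 libraries, with ALB (albumin) the highest. The other marker, APOB, was listed near 0 (means of 0.151 FPKM after IL-6 and 0.127 FPKM after IL-10). Genes that all cells use, such as FTH1, were listed at 0 in every library, so values at or near 0 may be failed estimates. PTPRC and CD3E (white blood cells), COL1A2, COL3A1, LUM and DCN (fibroblasts), KDR (endothelium) and CDX1, LGALS4, CDH17, KRT20 and GPA33 (colon) were at 0 in all 6. Other members of these lists were present, with IL-6 and IL-10 means of 46.4 and 49.4 FPKM for VIL1 (colon), 33.7 and 32.1 FPKM for CD68 (blood) and 6.69 and 6.92 FPKM for ACTA2 (fibroblasts). Of the bile duct list, EPCAM (116 and 115 FPKM), SOX9 (69.6 and 64.2 FPKM) and KRT19 (25.6 and 25.3 FPKM) were present and KRT7 was near 0. Of the blood list, LYZ (lysozyme) stood at 1130 to 1254 FPKM in IL-6 libraries and 1329 to 1440 FPKM in IL-10 libraries, and CD14 at 1.98 to 2.27 FPKM against 0.90 to 1.21 FPKM. In bulk RNA, fewer cells and less RNA per cell cannot be told apart. Each group has 3 libraries described as biological replicates, without word on whether the cultures were separate, and the p-values therefore reflect a spread between libraries that may be technical.

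IL-6 replicate 3 stood apart from its group. Its reads differed from those of IL-6 replicates 1 and 2 with a chi-square per degree of freedom of 30.7 and 25.2, against 11.9 between replicates 1 and 2, so no library was a repeat of another. Its deviations from the group mean had an SD of 0.151 on the log2 scale, against 0.116 to 0.131 in the other 26 HepG2 libraries. Reads on ribosomal protein genes were 4.33%, 4.15% and 3.55% of all in IL-6 replicates 1, 2 and 3, against 4.96%, 4.81% and 4.81% in the IL-10 libraries. Mitochondrially encoded genes took 11%, 10.8% and 10.4% of the reads in IL-6 libraries and 10.4%, 11.9% and 11.7% in IL-10 libraries. Many of the counts below, though not all, are therefore given also without replicate 3, an alternative chosen after the data were seen.

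At 3 h a small set of liver genes stood several-fold higher after IL-6 than after IL-10, over many small differences in both directions. Differences below are means of log2(FPKM + 1), IL-6 minus IL-10, with the SE of the limma fit, and called genes are those under 0.05 in p after Benjamini-Hochberg adjustment. Of 11280 genes tested, 2575 were called (22.8%), 1349 higher after IL-6 (12%) and 1226 lower (10.9%). The IL-6 and IL-10 libraries did not overlap for 3479 genes (30.8%). The median called rise was 0.18 and the median called fall -0.22, and 91.5% of the rises and 95% of the falls were under 0.5 in size. Rises of at least 2-fold on this scale numbered 24 (0.213%) and falls of that size 8 (0.0709%), and 6 and 2 of these genes have a second table entry for an alternate copy and are not named. Without replicate 3 there were 1034 rises and 759 falls. A fit of only the 6 libraries compared, which leaves fewer degrees of freedom and takes the spread from these groups alone, called 356 rises and 179 falls. There 39 of 130 named genes lost their call, among them TIMP1, TTR, FOS, CXCL2 and TNFAIP3. Between replicates, chi-square per degree of freedom was 11.9 to 30.7 for IL-6 and 12.4 to 19.9 for IL-10 at 3 h. It was 7.72 to 19.1 in the other HepG2 groups, which also supply the spread of the main fit. The part of this in the lost calls was not tested. Against NC, in a comparison that shares the IL-6 libraries, 105 of the 115 called rises of at least 0.5 were called higher and 30 of the 61 falls of that size lower. With libraries scaled to a constant sum, the split was 2407 higher to 644 lower, with the median gene at 0.055, and no called gene named here changed its sign under that scaling. The plot of difference against level shows the large rises far from the cloud.

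**Figure D1:**
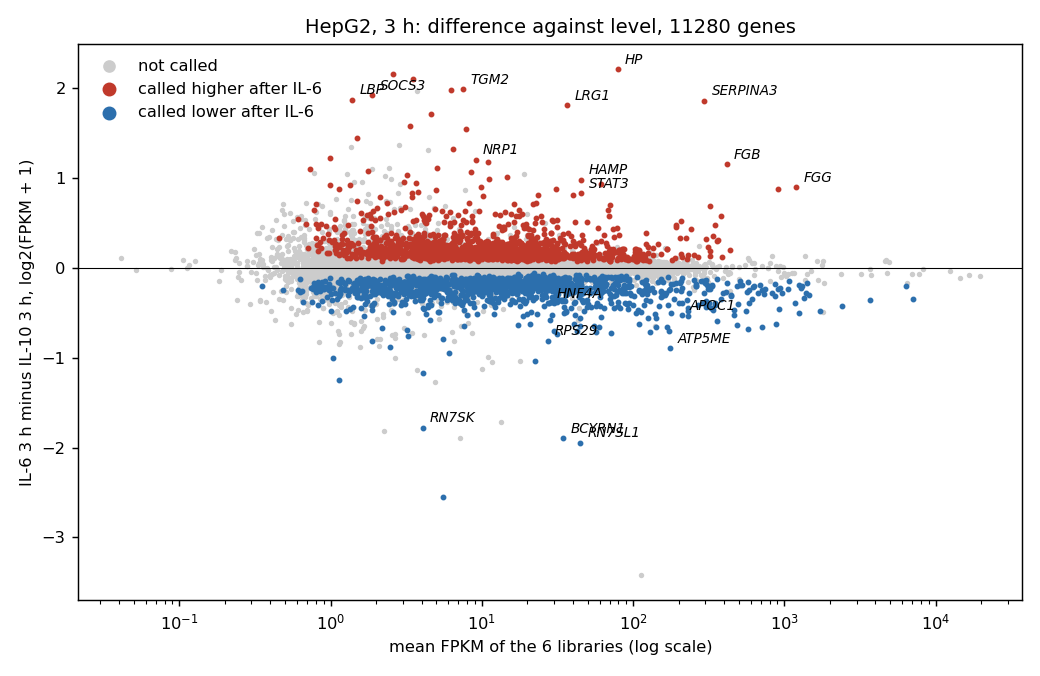
Each point is 1 of 11280 genes in HepG2 at 3 h, with its mean FPKM over the 6 libraries (log axis) and its IL-6 minus IL-10 difference on the log2(FPKM + 1) scale. Red points were called higher and blue points lower after IL-6; HP (2.21), SERPINA3 (1.86) and LRG1 (1.81) stand above the cloud at high levels, and RN7SL1 (-1.95) and BCYRN1 (-1.89) below it.

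The leading genes code for acute phase proteins and for the feedback inhibitor of the pathway. HP (haptoglobin, which binds free haemoglobin; chromosome 16, 72054505 to 72061055, GRCh38.p14) was at 140.8, 126 and 125.5 FPKM in the IL-6 libraries, against 26.77, 28.06 and 27.69 FPKM in the IL-10 libraries. Every IL-6 library thus stood more than 4-fold above every IL-10 library. The difference was 2.21 ± 0.09 (adjusted p = 2.07e-13), a 4.75-fold ratio of the means. SERPINA3 (α1-antichymotrypsin, a protease inhibitor of the plasma; chromosome 14, 94612391 to 94624053) was at 528.4, 459.5 and 408.8 FPKM after IL-6 and 127.9, 123.7 and 129.7 FPKM after IL-10. The IL-6 libraries spread more than the IL-10 libraries, replicate 3 being the lowest, and none came near an IL-10 library. The difference was 1.86 ± 0.07 (adjusted p = 2.08e-14), a 3.66-fold ratio. LRG1 (leucine-rich α2-glycoprotein, a secreted plasma protein; chromosome 19, 4536402 to 4540036) was at 62.22, 57.84 and 52.38 FPKM after IL-6 and 14.99, 16.22 and 15.75 FPKM after IL-10, again in separate ranges. Its difference was 1.81 ± 0.05 (adjusted p = 3.89e-16), a 3.67-fold ratio.

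SOCS3 (chromosome 17, 78356778 to 78360925) was at 4.584, 3.216 and 2.955 FPKM in the IL-6 libraries, against 0.1997, 0.172 and 0.2264 FPKM in the IL-10 libraries. These levels rest on 809, 516 and 480 reads after IL-6 and 30, 24 and 42 reads after IL-10. SOCS3 was thus nearly silent after IL-10 and low but clearly present after IL-6. The difference was 1.92 ± 0.09 (adjusted p = 1.23e-12), and the ratio of the means was 18-fold, because the pseudocount of 1 shrinks differences of low genes. LBP (lipopolysaccharide-binding protein of the plasma) was at 3.607, 2.578 and 2.117 FPKM after IL-6, with 411, 267 and 222 reads. Each IL-10 library held 2 reads of LBP and each NC library 0, so no fold is given for a gene that was all but unread without IL-6 (adjusted p = 1.73e-12).

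**Figure D2:**
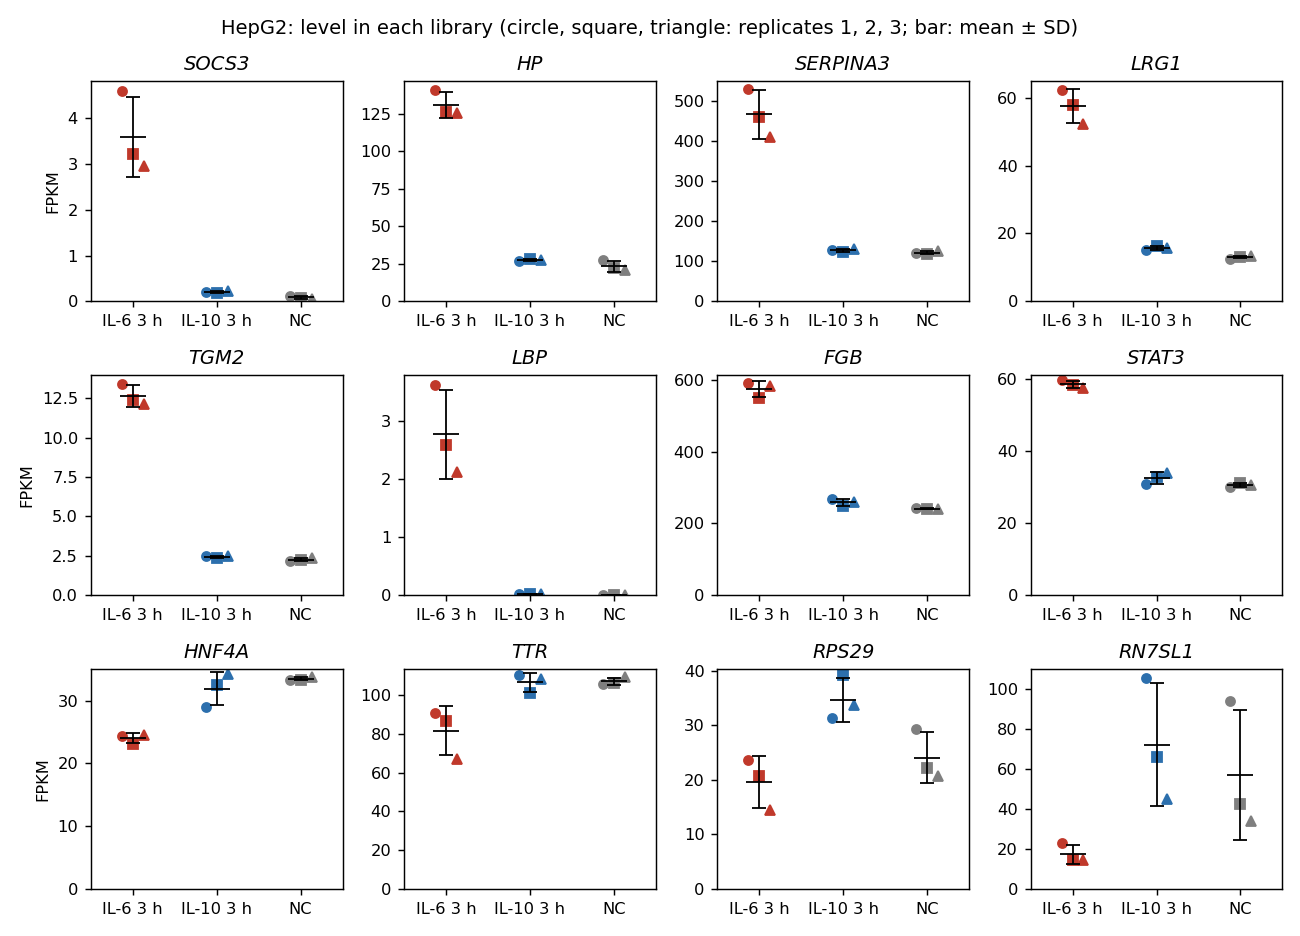
FPKM of 12 genes in each HepG2 library after IL-6 for 3 h, after IL-10 for 3 h and in medium (NC), with circle, square and triangle for replicates 1, 2 and 3 and bars for the mean and SD (n = 3). SOCS3, HP, SERPINA3, LRG1, TGM2, LBP, FGB and STAT3 have IL-6 libraries above all others, and HNF4A and TTR have IL-6 libraries below all others.

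The largest other rises were of several kinds. TGM2 (transglutaminase 2, which cross-links proteins) was at 13.43, 12.38 and 12.11 FPKM after IL-6 and 2.511, 2.382 and 2.456 FPKM after IL-10, a tight separation that gave 1.98 ± 0.04 (adjusted p = 1.61e-19) and a 5.16-fold ratio. PLA2G2A, a secreted phospholipase known as an acute phase reactant, was at 13.21, 8.76 and 7.203 FPKM after IL-6 against 2.872, 2.745 and 4.043 FPKM after IL-10 (1.32 ± 0.16, adjusted p = 3.29e-06). NRP1 (neuropilin-1, a co-receptor for semaphorins and VEGF) was at 12.7, 12.62 and 13.96 FPKM after IL-6 and 4.569, 5.427 and 5.391 FPKM after IL-10. Its difference was 1.20 ± 0.05 (adjusted p = 9.62e-13). HPR, a close paralog of HP, rose by 1.54, and reads shared between the pair make that value uncertain. SERPING1, the C1 inhibitor that restrains complement and contact activation, rose by 1.11 and CXCL5, a neutrophil chemokine, by 1.07.

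Among the receptors and signal carriers, the signalling chain and STAT3 itself rose. Of 21 tested genes of IL-6 receptors, kinases, STATs and their regulators, 11 rose and 1 fell (median 0.11). Over all 11280 genes tested 1349 rose and 1226 fell, with a median of 0. Without replicate 3 the list had 8 rises and 0 falls. With NC in place of IL-10 it had 8 rises and 3 falls, where 14.5% of all tested genes were higher and 19.5% lower. STAT3 (chromosome 17, 42313324 to 42388442) was at 59.78, 58.32 and 57.7 FPKM after IL-6 and 30.8, 32.79 and 33.96 FPKM after IL-10. Its IL-6 libraries differed among themselves by less than the gap to IL-10, and the difference was 0.83 ± 0.03 (adjusted p = 2.07e-13). OSMR (the oncostatin M receptor chain, a partner of gp130) was at 28.71, 28.07 and 29.45 FPKM after IL-6 against 16.83, 16.96 and 17.23 FPKM after IL-10 (0.72). IL6ST was at 57.14, 53.51 and 63.41 FPKM after IL-6 and 41.28, 38.98 and 41.36 FPKM after IL-10 (0.50). JAK3 (0.48), STAT2 (0.29), IL6R (0.28), STAT5A (0.26), JAK2 (0.18), PTPN11 (0.12) and PTPN2 (0.11) also rose, the last pair coding for phosphatases. STAT5B fell by 0.10 on the log2 scale. JAK1 (0.05 ± 0.03), TYK2 (-0.06 ± 0.04) and STAT6 (0.01 ± 0.04) did not pass the test, nor did LIFR, PIAS1, PIAS3, PTPN1, PTPN6 or ADAM17 (-0.17 to 0.08). IL6R, JAK2, PTPN11 and STAT5B lost their call with NC in place of IL-10. The calls of JAK2, PTPN2, PTPN11 and STAT5B were also lost as single libraries were left out, PTPN2 in all but the fit without IL-10 replicate 1 and PTPN11 without IL-6 replicate 3 or IL-10 replicate 1. For JAK2 this was without IL-6 replicate 1 or 3 or IL-10 replicate 1 or 2, and so it was for STAT5B.

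The feedback family moved mainly through 2 members. Of 8 tested SOCS family genes, 4 rose and 0 fell (median 0.18), also without replicate 3. Among all tested genes 12% rose and 10.9% fell. SOCS2, which is known from growth hormone signalling, was at 2.205, 2.189 and 1.846 FPKM after IL-6 and 0.6517, 0.6189 and 0.611 FPKM after IL-10 (0.92 ± 0.05, adjusted p = 9.23e-11). SOCS6 (0.18) and SOCS4 (0.17) rose little, and CISH (0.22, adjusted p = 0.0576), SOCS1 (0.13, adjusted p = 0.387) and SOCS5 (0.01, adjusted p = 0.85) did not pass. On the side of the other cytokine, IL10RA was listed at 0 in the IL-6, IL-10 and NC libraries. IL10RB had 2 to 9 reads in each of the 6 libraries. Values at or near 0 may be failed estimates, so they do not show that the IL-10 receptor was absent. Of 6 tested genes of the IL-10 and interferon receptor family 2 rose, IFNGR1 (0.93 ± 0.04, adjusted p = 2.13e-13) and IFNAR1 (0.29), and 1 fell, IL22RA1 (-0.29), whose call was lost with NC in place of IL-10 (-0.02). IFNGR1, a chain of the interferon-γ receptor, was at 82.16, 83.01 and 78.8 FPKM after IL-6 and 43.16, 41.71 and 41.46 FPKM after IL-10.

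Known STAT3 target genes were mostly higher. Of 31 tested, 22 rose and 3 fell (median 0.38), and 22 and 1 without replicate 3. Among all tested genes 12% rose and 10.9% fell. CEBPD (C/EBPδ, a transcription factor of the acute phase response) was at 17.54, 16.23 and 13.3 FPKM after IL-6 and 7.018, 6.036 and 6.001 FPKM after IL-10, a difference of 1.18 ± 0.09 (adjusted p = 2.79e-09). IL1R1, the interleukin-1 receptor, was at 11.46, 11.72 and 12.25 FPKM after IL-6 and 5.015, 5.143 and 5.172 FPKM after IL-10 (1.07 ± 0.06, adjusted p = 5.38e-11). IL4R, the interleukin-4 receptor chain, was at 19.91, 20.41 and 19.57 FPKM after IL-6 and 9.478, 10.01 and 8.699 FPKM after IL-10 (1.01 ± 0.05, adjusted p = 6.99e-12). Within the C/EBP family of 6 tested genes, CEBPD rose, CEBPA fell (31.15, 31.6 and 29.73 FPKM after IL-6 against 37.01, 41.66 and 41.55 FPKM after IL-10, -0.37 ± 0.06) and 4 did not pass.

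Acute phase genes were higher almost throughout. Of 29 tested genes of positive acute phase proteins 22 rose and 0 fell (median 0.57), the same counts without replicate 3. With NC in place of IL-10 the counts were 23 and 0. The shares over all tested genes were 12% and 10.9% against IL-10, and 14.5% and 19.5% against NC. The 3 genes of fibrinogen, the clot protein, lie side by side on chromosome 4. FGB (β chain) was at 591.2, 550.6 and 583.4 FPKM after IL-6 and 267.3, 248.5 and 259.9 FPKM after IL-10 (1.15 ± 0.04, adjusted p = 2.08e-14). FGG (γ chain) was at 1656, 1521 and 1500 FPKM after IL-6 and 845.5, 814.3 and 845.8 FPKM after IL-10 (0.90 ± 0.04), and FGA (α chain) at 1277, 1152 and 1103 FPKM after IL-6 and 634.9, 637.9 and 648.6 FPKM after IL-10 (0.87 ± 0.04). All 3 chains were already among the highly expressed genes without IL-6, and their IL-6 libraries stood well clear of the others. FGL1, a fibrinogen-like hepatokine, rose by 0.21. SAA1 and SAA2, the serum amyloid A genes, did not pass the filter on low values, and SAA2 had 195, 102 and 150 reads after IL-6 against 0, 0 and 3 reads after IL-10. CRP (C-reactive protein) was listed at 0 in every library, as were genes such as FTH1 that all cells use, so a 0 here may be a failed estimate.

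The upstream sequences of genes that rose together are shown because STAT3 is known to bind the palindrome TTCNNNGAA, and because CTGGGAA is the core of the older type II acute phase element. Each line gives the 250 bases before the annotated start from RefSeq on GRCh38.p14, 5′ to 3′ on the gene's strand, with a match to either motif (on either strand) in capitals. The 6 windows were picked because they hold a match.
LRG1 (chr19:4540037-4540286, minus strand): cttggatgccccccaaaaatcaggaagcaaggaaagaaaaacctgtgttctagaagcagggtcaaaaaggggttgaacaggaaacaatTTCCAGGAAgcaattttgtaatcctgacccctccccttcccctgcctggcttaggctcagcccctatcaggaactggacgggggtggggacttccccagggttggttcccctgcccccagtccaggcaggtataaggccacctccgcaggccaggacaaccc
FGA (chr4:154590743-154590992, minus strand): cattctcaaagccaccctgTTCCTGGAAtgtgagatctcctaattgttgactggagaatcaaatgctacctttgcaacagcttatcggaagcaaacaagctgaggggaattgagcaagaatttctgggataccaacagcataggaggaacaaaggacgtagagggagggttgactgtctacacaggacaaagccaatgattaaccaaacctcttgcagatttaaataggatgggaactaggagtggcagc
FGB (chr4:154562730-154562979, plus strand): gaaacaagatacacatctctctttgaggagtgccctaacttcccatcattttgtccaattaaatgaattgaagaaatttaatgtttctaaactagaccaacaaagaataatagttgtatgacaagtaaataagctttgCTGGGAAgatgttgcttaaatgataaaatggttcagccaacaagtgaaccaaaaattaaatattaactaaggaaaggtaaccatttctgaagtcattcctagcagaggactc
FGG (chr4:154612657-154612906, minus strand): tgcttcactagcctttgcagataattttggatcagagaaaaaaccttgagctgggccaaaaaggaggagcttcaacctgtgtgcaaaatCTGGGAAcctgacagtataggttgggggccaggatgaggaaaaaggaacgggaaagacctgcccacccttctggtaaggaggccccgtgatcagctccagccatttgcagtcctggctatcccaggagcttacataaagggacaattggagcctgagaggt
HAMP (chr19:35282278-35282527, plus strand): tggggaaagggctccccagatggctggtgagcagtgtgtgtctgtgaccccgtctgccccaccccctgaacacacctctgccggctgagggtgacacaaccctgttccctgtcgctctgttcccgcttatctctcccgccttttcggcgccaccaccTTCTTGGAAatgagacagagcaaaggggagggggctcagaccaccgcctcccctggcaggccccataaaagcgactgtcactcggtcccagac
SOCS3 (chr17:78360926-78361175, minus strand): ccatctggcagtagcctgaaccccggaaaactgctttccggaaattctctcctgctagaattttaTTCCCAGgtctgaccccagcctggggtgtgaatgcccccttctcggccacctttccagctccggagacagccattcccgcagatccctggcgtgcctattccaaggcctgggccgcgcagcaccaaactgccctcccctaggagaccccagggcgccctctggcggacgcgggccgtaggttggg
The matches begin at -162 in LRG1, -231 in FGA, -112 in FGB, -161 in FGG, -93 in HAMP and -185 in SOCS3, counted from the annotated start. LRG1, FGA and HAMP hold TTCNNNGAA, FGB and FGG hold CTGGGAA, and SOCS3 holds its reverse complement TTCCCAG. The TTCNNNGAA motif lies in 7.88% of all 27305 promoter windows of 300 bases in the table and in 6.34% of the 8559 windows of tested genes. Among genes called higher by at least 0.5, 17 of 83 windows hold it (20.5%), and among genes called lower by at least 0.5, 1 of 40 (2.5%). CTGGGAA or TTCCCAG lies in 11.6% of the windows of tested genes, 14.5% of those of the larger rises and 15% of those of the larger falls. A match is a description of letters in a window and not of a bound site, and the windows of SERPINA3, STAT3, IL1R1, IL4R, IFNGR1, PLA2G2A and HNF4A hold neither motif. CISH, which did not pass the test, has 4 matches to TTCNNNGAA. Of the larger rises 27 of 83 windows hold either motif (32.5%), against 16.1% of the windows of tested genes. HP, LBP and TGM2 have no window here.

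**Figure D3:**
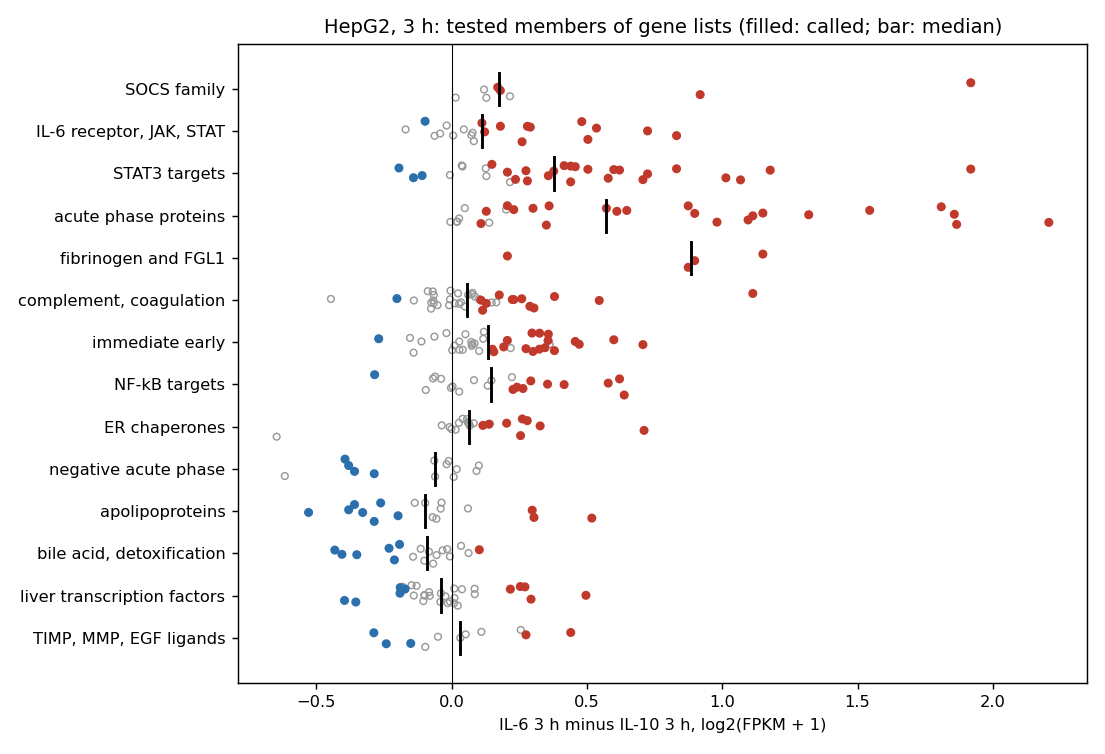
IL-6 minus IL-10 difference at 3 h on the log2(FPKM + 1) scale for every tested member of 14 gene lists, with filled points for called genes (red higher, blue lower), open points for genes that did not pass and a bar at the list's median. The medians of the acute phase list (0.57), the fibrinogen list (0.89) and the STAT3 target list (0.38) lie to the right, and those of the apolipoprotein list (-0.10) and the bile acid list (-0.09) slightly to the left of 0.

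Other secreted and iron-handling products of the liver moved in part, where 12% of all tested genes rose and 10.9% fell. Of 38 tested complement and coagulation genes 12 rose and 1 fell (median 0.06), and 11 and 0 without replicate 3. Besides SERPING1 these include the complement components C6 (0.55), C1S (0.38) and C5 (0.30). HAMP, which codes for the iron hormone hepcidin, was at 64.78, 61.84 and 55.42 FPKM after IL-6 and 29.24, 26.5 and 35.51 FPKM after IL-10 (0.98 ± 0.12, adjusted p = 3.82e-06). SLC40A1 (ferroportin, the iron exporter that hepcidin blocks) fell to 39.56, 38.96 and 36.85 FPKM after IL-6, against 48.57, 45.07 and 44.48 FPKM after IL-10 (-0.25 ± 0.04). HMOX1 (haem oxygenase, 0.59) and ID1 (a target of BMP signalling, 0.52) rose, and in all 5 of 17 tested iron genes rose and 3 fell (median 0.06). The metallothionein MT2A was at 466.3, 359.6 and 366.2 FPKM after IL-6 and 269.1, 214.8 and 253.5 FPKM after IL-10 (0.69 ± 0.09), and SLC39A14 (0.23) and SLC39A6 (0.11), which import zinc, also rose. SLC30A10, a manganese exporter, fell by 0.22 on the log2 scale.

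Several immediate early and NF-kB genes stood highest after IL-6, with IL-10 between IL-6 and medium. Of 38 tested immediate early genes 17 rose and 1 fell (median 0.14) against IL-10, where 12% of all tested genes rose and 10.9% fell. With NC in place of IL-10, 34 rose and 0 fell (median 0.67), where 14.5% of all tested genes were higher and 19.5% lower. These comparisons share the IL-6 libraries. JUNB (an AP-1 subunit) was at 20.54, 23.94 and 17.08 FPKM after IL-6, 12.52, 13.75 and 10.19 FPKM after IL-10 and at a mean of 5.0 ± 0.24 FPKM in medium. All IL-6 libraries were above all IL-10 libraries (0.71 ± 0.11, adjusted p = 9.79e-05), and IL-10 exceeded NC by 1.12 (adjusted p = 4.6e-07). ATF3 (0.47 against IL-10, with IL-10 0.80 above NC), BCL3 (0.62 and 0.85), TNFAIP3 (0.42 and 0.79), ICAM1 (0.58 and 0.57), MCL1 (0.46 and 0.43), FOS (0.60 and 0.66) and CXCL2 (0.86 and 0.59) had the same order of groups, in differences that share the IL-10 libraries. Across all genes IL-10 differed from NC in 2149 (19.1%), 809 higher (7.17%) and 1340 lower (11.9%). That split depends on scaling, with 1034 higher and 892 lower under median-of-ratios scaling and 495 and 2983 under constant-sum scaling. IL-6 differed from NC in 3827 (33.9%). Of 21 tested NF-kB targets 9 rose and 1 fell (median 0.15) against IL-10, and of 12 chemokine and cytokine genes 5 rose and 1, CX3CL1 (-0.25 against IL-10 and 0.09 against NC), fell. SOD2, the mitochondrial superoxide dismutase, was at 83.42, 83.16 and 82.09 FPKM after IL-6 and 54.78, 53.99 and 50.07 FPKM after IL-10 (0.64 ± 0.05). Among 21 interferon and IRF genes 6 rose and 3 fell, and 6 and 0 without replicate 3, with IFITM1 (0.58), IFITM3 (0.43) and NLRC5 (0.36) among the rises.

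Some genes of protein folding and ribosome assembly passed the test, where 12% of all tested genes rose and 10.9% fell. Of 22 tested ER chaperone and unfolded protein response genes 8 rose and 0 fell (median 0.07), also without replicate 3, while with NC in place of IL-10 5 rose and 1 fell. DNAJB9, an ER co-chaperone, was at 27.7, 24.09 and 30.17 FPKM after IL-6 and 16.81, 14.53 and 17.49 FPKM after IL-10, a difference of 0.71 ± 0.08 (adjusted p = 9.17e-07). XBP1 (a transcription factor of secretory cells, 0.33), HERPUD1 (0.28) and CREB3L3 (a liver factor of the acute phase, 0.26) rose too, though HERPUD1 lost its call against NC (0.10) and CREB3L3 without IL-6 replicate 1 (0.17). Of 39 ribosome biogenesis genes 8 rose and 1 fell (median 0.04), led by DDX21 (0.31), GNL3 (0.22), WDR43 (0.21) and NOLC1 (0.16). Of 13 heat shock genes 2 rose (DNAJB1 0.19, BAG3 0.16) and DNAJB4 fell (-0.33), and BAG3 lost its call without replicate 3 (0.13) and against NC (0.03).

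Lists of the differentiated hepatocyte held small falls, fewer rises in most lists and genes that did not pass. Over all tested genes 12% rose and 10.9% fell. HNF4A, a master transcription factor of hepatocytes (chromosome 20, 44355699 to 44434596), was at 24.42, 23.07 and 24.48 FPKM after IL-6 and 29.07, 32.5 and 34.22 FPKM after IL-10 (-0.40 ± 0.04, adjusted p = 6.64e-07). Its IL-6 libraries were also below the NC mean of 33.5 ± 0.27 FPKM. Of 31 liver transcription factors 5 rose and 5 fell (median -0.04), with AHR (0.50) and PROX1 (0.29) among the rises and NR0B2, the bile acid sensor's co-repressor SHP, among the falls (-0.35), a call that was lost with NC in place of IL-10 (-0.08). Of 13 tested negative acute phase genes 0 rose and 4 fell (median -0.06, and 0.01 with constant-sum scaling), 0 and 3 without replicate 3, and 1 and 2 with NC in place of IL-10. TTR (transthyretin) was at 90.86, 86.41 and 67.15 FPKM after IL-6 and 110.3, 101.1 and 108.2 FPKM after IL-10 (-0.39 ± 0.08, adjusted p = 0.00103). APOA1 (-0.29), APOA2 (-0.36) and APOC3 (-0.38) fell, and in each of them IL-6 replicate 3 was the lowest library. Against NC the differences of APOA2 (-0.12) and APOC3 (-0.11) did not pass, and without replicate 3 that of APOC3 did not (-0.25). Of 17 apolipoprotein genes 3 rose and 7 fell (median -0.10), and 2 and 3 both without replicate 3 and with NC in place of IL-10. APOC1 was at 195.9, 184.7 and 142.2 FPKM after IL-6 and 243.9, 252.5 and 251.9 FPKM after IL-10 (-0.53 ± 0.08). APOC3, APOC1 and APOA2 have 351, 387 and 399 coding bases and TTR 555, and 30.7% of the 1009 tested genes with over 300 and up to 600 coding bases were called lower. The part of coding length in these falls was not tested. Of 18 bile acid and detoxification genes 1 rose and 6 fell (median -0.09), 0 and 4 without replicate 3 and 1 and 4 against NC, with SULT2A1 (a sulfotransferase, -0.35 against IL-10 but -0.05 and not called against NC), SLC27A5 (-0.40) and CYP1A1 (-0.43) among the falls. CYP1A1, a cytochrome P450 induced through AHR, was at 14.7, 14.78 and 15.91 FPKM after IL-6 and 20.61, 20.52 and 21.08 FPKM after IL-10, with an NC mean of 47.0 FPKM. IL-10 itself thus stood 1.14 below NC on the log2 scale.

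Calls in the metabolic lists were near or below the share over all tested genes, of which 22.8% were called. Of 18 insulin and glucose genes 2 rose, IGFBP1 (a secreted binder of insulin-like growth factors, 0.48) and IRS1 (an insulin receptor substrate, 0.14). The 2 that fell were G6PC1 (the last enzyme of glucose release, -0.38) and PPARGC1A (a co-activator of gluconeogenesis, -0.13), whose call was lost without IL-6 replicate 2 or 3 or IL-10 replicate 1 or 3. Of 27 sterol and fatty acid genes 1 rose and 4 fell, the falls including FDPS (-0.32) and EBP (-0.31), enzymes of sterol synthesis. Of the 13 mitochondrially encoded genes 0 rose and 2 fell, ND3 (-0.35) and ND6 (-0.43), their IL-6 and IL-10 libraries overlapped, and neither was called without IL-6 replicate 3, without IL-10 replicate 2 or 3, or against NC (0.02 and 0.08).

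The series text is directed at TIMP, MMP and EGF family genes. Of 11 tested, 2 rose and 3 fell (median 0.03), and 3 and 3 without replicate 3. With NC in place of IL-10, 5 rose and 3 fell. The shares over all tested genes were 12% and 10.9% against IL-10, and 14.5% and 19.5% against NC. TIMP1, a secreted inhibitor of matrix metalloproteinases (chromosome X, 47582436 to 47586789), was at 22.52, 25 and 18.67 FPKM after IL-6 and 15.46, 16.81 and 15.42 FPKM after IL-10 (0.44 ± 0.08, adjusted p = 0.000677). HBEGF, an EGF receptor ligand, rose by 0.28 (adjusted p = 0.0444), a call lost when IL-6 replicate 1 or 2 or any IL-10 library was left out (0.16 to 0.31, highest adjusted p = 0.242). TIMP3 was at 42.74, 47.04 and 46.62 FPKM after IL-6 and 52.85, 55.42 and 53.39 FPKM after IL-10 (-0.24 ± 0.05), but stood 0.17 above NC, since IL-10 was 0.42 above NC. TGFA (-0.29) and the receptor ERBB3 (-0.15) fell. MMP3 (0.26 ± 0.09, adjusted p = 0.0514), AREG (0.11 ± 0.09), MMP15 (0.05 ± 0.05), MMP14 (0.03 ± 0.06), ERBB2 (-0.05 ± 0.04) and TIMP2 (-0.10 ± 0.06) did not pass.

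The largest falls were in small noncoding RNAs and in genes of short proteins. In libraries made from poly(A) RNA, the measured level of a small noncoding RNA need not follow its level in the cell. RN7SL1, the RNA of the signal recognition particle (chromosome 14, 49586580 to 49586878), was at 22.82, 14.2 and 14.67 FPKM after IL-6, 105.4, 65.66 and 44.86 FPKM after IL-10 and at a mean of 56.8 ± 32.5 FPKM in medium (-1.95 ± 0.40, adjusted p = 0.00123). Its libraries varied widely within each group. RN7SL3, a near copy that can share its reads, fell by 1.17 on the log2 scale. RN7SK, the RNA that holds the elongation factor P-TEFb, was at 1.785, 0.9022 and 1.101 FPKM after IL-6 and 4.364, 8.543 and 7.758 FPKM after IL-10 (-1.78 ± 0.25), with an NC mean of 1.98 FPKM. BCYRN1 (BC200 RNA) was at 13.7, 17.18 and 10.09 FPKM after IL-6 and 31.51, 63.61 and 71.48 FPKM after IL-10 (-1.89 ± 0.27) and its NC mean was 11.3 FPKM. IL-10 exceeded NC by 2.13 for BCYRN1 and by 1.37 for RN7SK on the log2 scale, while IL-6 differed from NC by 0.23 and -0.40. The small nucleolar RNAs SNORD141B (-1.04) and SNORD3A (-0.80) were likewise near their NC level after IL-6. LINC02413 (-0.95) and the small nucleolar host gene SNHG19 (-0.72) fell as well. The protein-coding falls were led by ATP5ME (a small subunit of ATP synthase, -0.89), RPS29 (-0.81), RPL37 (-0.73) and UQCRHL (-0.73, a copy of UQCRH that can share its reads). Against NC the differences of ATP5ME (-0.22), RPS29 (-0.29) and UQCRHL (-0.21) did not pass. RPL37, a ribosomal protein, was at 61.55, 56.9 and 43.94 FPKM after IL-6 and 79.24, 96.99 and 93.62 FPKM after IL-10, and its NC mean was 65.1 FPKM (-0.28 against NC, adjusted p = 0.0258).

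Falls were more frequent among genes of short coding length. Genes called lower had a median coding length of 789 bases, against 1752 bases for genes called higher and 1410 bases for all tested genes, and the 41 protein-coding genes called lower by at least 0.5 had 294 bases. Among 159 tested genes with 300 coding bases or fewer 47.2% were called lower, against 3.55% of the 2029 genes over 2400 bases. The slope was steepest in IL-6 replicate 3, where the median difference from the IL-10 mean was -0.27 in the shortest class and 0.09 in the longest, against -0.09 and 0.01 in replicate 1 and -0.13 and 0.02 in replicate 2. The 3 NC libraries had median differences from IL-10 of -0.04, -0.08 and -0.09 in the shortest class. Without replicate 3, 35.2% of the shortest class and 4.19% of the longest were called lower. The 100 protein-coding genes called higher by at least 0.5 with a known length had a median of 1352 bases.

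**Figure D4:**
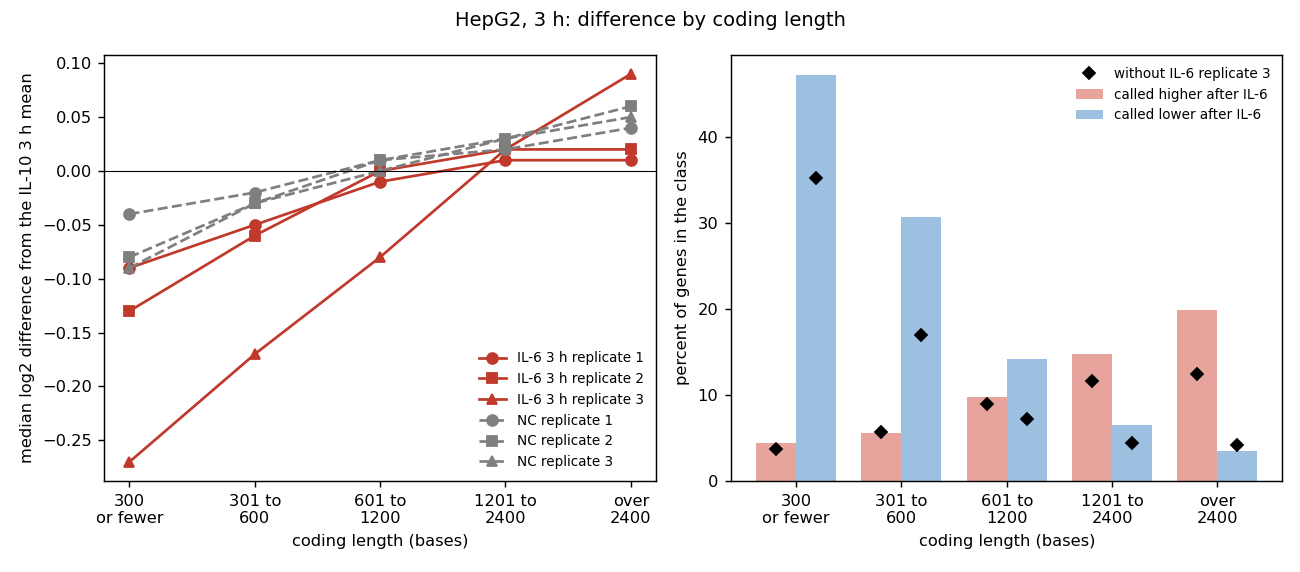
Left, median log2(FPKM + 1) difference of each IL-6 3 h library (red) and each NC library (grey) from the IL-10 3 h mean, by class of coding length in bases. Right, percent of tested genes in each class that were called higher (red bars) or lower (blue bars) after IL-6, with diamonds for the fit without IL-6 replicate 3; 47.2% of the shortest class and 3.55% of the longest were called lower.

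Most of the larger rises at 3 h were also present at 6 h, in libraries that are not shared with the 3 h groups. At 6 h 2667 genes differed between IL-6 and IL-10 (23.6%), 14.4% of all higher and 9.28% lower. Of the 115 genes called higher by at least 0.5 at 3 h, 94 were called higher at 6 h, and their median difference was 0.64 at 3 h and 0.61 at 6 h. Of the 61 genes called lower by at least 0.5 at 3 h, 10 were called lower at 6 h, with a median of -0.65 at 3 h and -0.12 at 6 h. Both sets were chosen for their size at 3 h, which favours a larger effect at that time than at 6 h. The part of this choice in the smaller 6 h values was not tested. The 3 h and 6 h effects differed by the test of the difference itself in 157 of 11280 genes (1.39%), with 71 effects higher at 3 h (0.629%) and 86 lower (0.762%). Among them were 25 of the 115, of which 12 rose more at 3 h, and 8 of the 61, all of which fell more at 3 h. This count moved between 54 and 434 as single libraries were left out, lowest without IL-10 6 h replicate 3 and highest without IL-6 3 h replicate 1. SOCS3 differed by 1.92 at 3 h and 3.17 at 6 h, HP by 2.21 at 3 h and 2.84 at 6 h, and JUNB by 0.71 at 3 h and 1.75 at 6 h. SOCS2 had the larger difference at the earlier time, with 0.92 at 3 h and 0.22 at 6 h, its IL-6 mean being 2.08 ± 0.20 FPKM at 3 h and 0.851 ± 0.063 FPKM at 6 h. STAT3 (0.83 at 3 h, 0.86 at 6 h), HNF4A (-0.40 and -0.36) and HAMP (0.98 and 1.00) were similar at both times, and the difference between times did not pass the test for any of them.

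**Figure D5:**
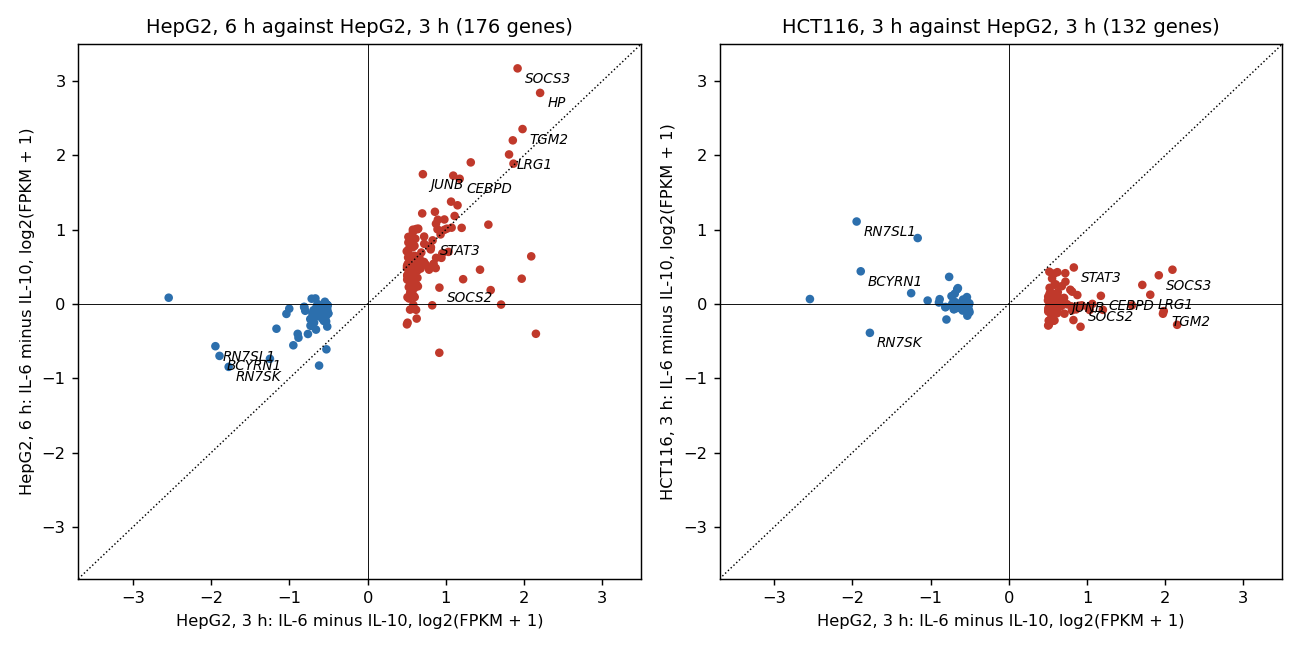
Genes called in HepG2 at 3 h with a difference of at least 0.5 in size (red higher, blue lower after IL-6), plotted by their IL-6 minus IL-10 difference at 3 h (x axis) against that at 6 h in HepG2 (left, 176 genes) and at 3 h in HCT116 (right, 132 genes), all on the log2(FPKM + 1) scale with a dotted line of equality. Most red points stay above 0 at 6 h, where 94 of 115 were called higher, while most points lie near 0 in HCT116, with STAT3 at 0.49 and SOCS3 at 0.39.

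In HCT116 cells the same 3 h comparison gave few calls. There 27 of 11395 genes tested were called (0.237%), 19 higher (0.167%) and 8 lower (0.0702%) after IL-6. Of the 81 larger HepG2 rises that could be tested in both lines, 63 differed between the lines, and 8 were called higher in HCT116, with a median HCT116 difference of -0.00. These genes were chosen for a rise in HepG2, which nearly fixes the direction of the difference, and all 63 were larger there. Over all genes the effect of IL-6 differed between the lines in 1306 of 9683 (13.5%), 834 of them higher in HepG2 (8.61%) and 472 lower (4.87%), and the total was 774 without HepG2 IL-6 replicate 3. SOCS3 differed by 1.92 in HepG2 and 0.39 in HCT116, and STAT3 by 0.83 in HepG2 and 0.49 in HCT116, where its mean was 18.1 FPKM after IL-6 and 12.6 FPKM after IL-10. OSMR rose in both (0.72 and 0.30). TGM2 (1.98 in HepG2, -0.10 in HCT116), LRG1 (1.81 and 0.12), NRP1 (1.20 and -0.08) and IL4R (1.01 and -0.05) did not pass in HCT116, and for each the difference between lines passed the test. HP, SERPINA3, LBP and the fibrinogen genes were under the filter in HCT116 and were not compared.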

How the data were processed

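Per the labels' protocols, poly(A) RNA was turned into libraries with a VAHTS kit (MGI version) and read paired-end on an MGISEQ-2000RS. The authors deposited FPKM values in a single table of 50037 gene entries and 54 library columns. FastQC, HISAT2, StringTie, DESeq2 and GRCh38 are named in the submitters' processing notes without versions. The counting tool was not named there. The table's 48 columns of unnamed comparisons were not used.

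Whole reads were recovered from the steps between low FPKM values for all 36451 genes above 0 (100.0%, within 0.01 read), which gave the depths. Precision near the filter is limited by counting, and a single read over 1 kb of transcript equalled at most 0.02026 FPKM in the 6 libraries. The main test stayed on the deposited FPKM, and voom on the recovered reads called 2729 genes. FTH1, EIF4A1 and CRP were listed at 0 everywhere. A second table entry (an alternate copy) exists for 558 of the tested genes, of which 40 were called, and such genes are counted but not named.

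limma 3.58.1 in R 4.3.3 (empirical Bayes with a trend) was fitted to log2(FPKM + 1). The 11280 genes that entered reached 1 FPKM in 3 or more of the 27 HepG2 libraries, with 1 mean for each of 9 groups and no covariate, so that all groups share the estimate of the spread. p-values were adjusted over all genes by Benjamini-Hochberg. The difference between lines came from a fit of all 54 libraries (9683 genes passing in both). An exact permutation test of 3 against 3 libraries cannot go below p = 0.1, so none was used. Because 1 is added first, differences of low genes come out too small.

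On simulated data for the IL-6 3 h minus IL-10 3 h comparison (10916 genes), 70%, 94%, 98% and 98% of genes changed by 1.25, 1.5, 2 and 4-fold were recovered, and 4.8% of the calls were unchanged genes. For the difference between lines (9360 genes) these values were 26%, 90%, 92%, 96% and 4.4%, and for the difference between times (10914 genes) 18%, 84%, 88%, 100% and 2%. In each simulation 200 genes were changed, and every library had the same spread around the mean of its line. No library lay apart from its group, and no slope with coding length was put in. The shares of unchanged genes are therefore not error rates of the real calls.

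Named genes were the 15 called genes that rose most and the 12 that fell most, with at least 5 FPKM in either group and libraries that do not overlap, in each list the 4 called members that differed most, and every tested gene of the SOCS, IL-6 receptor, IL-10 receptor, fibrinogen and TIMP, MMP and EGF lists. SAA1, SAA2, CRP, IL10RA and IL10RB were named outside this rule, after their values were seen. Some genes that meet the rule are counted in their lists but not reported here. The comparison and the 31 gene lists were chosen with earlier results of these data known. Coordinates and promoter windows (250 bases before to 50 after the start) are from RefSeq on GRCh38.p14, coding lengths from the basic GTF annotation, which gave one for 83.6% of tested genes. Alternatives changed the scaling, the pseudocount, the low-value filter, library weights, the trend and the use of voom or of copy entries, blocked on replicate number, fitted fewer libraries, took NC as the control and left out each library in turn.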

Additional observations from a re-analysis of the deposited data

Results flagged for a closer look

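The genes below are those named in the report for which the IL-6 effect (IL-6 minus IL-10, log2(FPKM + 1)) differed between times or between lines by limma's test of the difference itself at an adjusted p under 0.05. No explanation was weighed for any of them.

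Between times, 157 genes differed in HepG2. The effect at 3 h minus that at 6 h was -1.25 for SOCS3, -1.04 for JUNB, -0.69 for IGFBP1, -0.63 for HP, -0.51 for CEBPD and -0.49 for TIMP1, so each of these rose more at 6 h. It was -0.42 for ICAM1, -0.37 for TGM2 and for SOD2, -0.32 for XBP1 and -0.24 for FGG, also larger at 6 h. Of the genes named, SOCS2 (0.70) and SOCS6 (0.28) had the larger effect at 3 h.

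Between lines, 1306 genes differed at 3 h. The effect in HepG2 minus that in HCT116 was 2.08 for TGM2, 1.68 for LRG1, 1.53 for SOCS3 and 1.28 for NRP1. Among receptors and signal carriers it was 1.07 for IL1R1, 1.06 for IL4R, 0.95 for IFNGR1, 0.42 for OSMR, 0.41 for IL6ST, 0.29 for IFNAR1 and 0.34 for STAT3. Among feedback and protease genes it was 0.95 for SOCS2, 0.24 for SOCS6, 0.26 for SOCS4, 0.16 for PTPN11, 0.17 for PTPN2 and 0.18 for ADAM17. Transcription factors and early genes had 1.07 for CEBPD, 0.63 for JUNB, 0.54 for ID1 and for AHR, 0.44 for ATF3 and for TNFAIP3, and 0.43 for MCL1. Secreted proteins and ligands had 0.93 for CXCL2, 0.52 for LIF, 0.49 for HBEGF and 0.34 for TIMP1. Stress, folding and metal genes had 0.84 for DNAJB9, 0.70 for MT2A, 0.64 for SOD2, 0.45 for XBP1, 0.43 for HERPUD1, 0.26 for DNAJB1, 0.21 for SLC39A14 and 0.18 for SLC39A6. Ribosome assembly genes had 0.34 for DDX21, 0.24 for GNL3 and 0.21 for WDR43.

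The difference between lines was negative for genes lower after IL-6 in HepG2. It was -0.39 for CEBPA, -0.31 for IL22RA1, -0.23 for TGFA, -0.38 for EBP, -0.31 for FDPS and -0.49 for SLC27A5. Short protein genes had -0.91 for ATP5ME, -0.84 for UQCRHL, -0.77 for RPS29, -0.71 for RPL37 and, of the mitochondrial genome, -0.83 for ND6 and -0.51 for ND3. Noncoding RNAs had -3.06 for RN7SL1, -2.33 for BCYRN1, -2.05 for RN7SL3, -1.08 for SNORD141B and -0.73 for SNHG19. RN7SL1 and RN7SL3 were lower after IL-6 in HepG2 (-1.95 and -1.17) and had positive differences in HCT116 (1.11 and 0.89), with an adjusted p in HCT116 of 0.59 for RN7SL1.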

How the results depend on the processing

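Of the 2575 genes called for IL-6 3 h against IL-10 3 h, 2551 kept call and sign with a pseudocount of 0.1, 2545 with median-of-ratios scaling and 2515 with voom on recovered reads. Fitting only the 6 libraries compared left 535 calls, 356 higher and 179 lower, 522 of them among the 2575. With NC in place of IL-10, 3827 genes were called, 2194 of them lower, and 1604 of the 2575 kept call and sign. Constant-sum scaling gave 2407 higher and 644 lower. Leaving out 1 library at a time gave 1793 to 2644 calls, 1034 to 1337 higher and 759 to 1335 lower, the lowest of each without IL-6 replicate 3, which kept 1639 of the 2575. IL-10 against NC gave 3478 calls with constant-sum scaling (495 higher, 2983 lower, against 809 and 1340), 1034 higher and 892 lower with median-of-ratios scaling, and 1407 to 1901 with 1 library left out, the lowest without IL-10 replicate 2. The difference between times gave 419 calls with constant-sum scaling (378 larger at 3 h, 41 smaller, against 71 and 86), 63 with no filter, 13 from the libraries compared alone, 256 with voom and 54 to 434 with 1 library left out. The difference between lines gave 2141 calls with constant-sum scaling (1916 and 225, against 834 and 472), 266 from the libraries compared alone and 774 to 1499 with 1 library left out, with 818 without HCT116 IL-6 replicate 1. The cause of these shifts was not tested. A fit of the libraries compared alone leaves fewer degrees of freedom and also takes its spread from those libraries only. Replicate numbers did not pair the libraries (correlations of deviations 0, 0.036 and -0.021), and the replicate block gave 2639, 2245, 235 and 1413 calls for the 4 counts in the order above.

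Of the 134 genes named by the rule, 28 values changed sign under some setting. With NC in place of IL-10 these were BCYRN1 (0.23), CISH (-0.14), CX3CL1 (0.09), IFNLR1 (0.13), JAK1 (-0.14), MMP14 (-0.02), ND3 (0.02), ND6 (0.08), PIAS3 (-0.04), SNORD141B (0.01), SOCS5 (-0.07), TIMP2 (0.05) and TIMP3 (0.17). Under the other settings, the genes that changed sign had not passed the test. These were ERBB2 (0.01), IFNLR1 (0.05), LIFR (0.01) and PIAS1 (0.04) with constant-sum scaling, IFNLR1 (0.00) and STAT6 (-0.01) with library weights, and with 1 library left out IFNLR1 (-0.03 to 0.02), LIFR (-0.09 to 0.01), MMP14 (0.00 to 0.07), MMP15 (-0.01 to 0.09), PIAS1 (-0.04 to 0.00), SOCS5 (-0.01 to 0.03) and STAT6 (-0.02 to 0.04).

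Genes near the filter rest on few reads: SOCS3 had 24 to 42 reads in the IL-10 libraries and LBP 2 in each. With 3 libraries a group, and IL-6 replicate 3 apart from its group, small falls and the differences between times are the least firm of these counts.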
